A study of Mus musculus with 12 samples.

Results

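The genes described here are 9 keratins that mark the upper layers of stratified epithelia or hard appendages: Krt1, Krt10, Krt2, Krt4, Krt13, Krt77, Krt78, Krt80 and Krt84. They were chosen by gene symbol, with earlier results of these data known. Each has 1 entry among the 25210 genes of the deposited count table, which lists 43 keratins in all. The data are RNA-seq libraries from organoids of the mammary gland, taken from virgin female FVB/N mice aged 8 to 11 weeks and grown in Matrigel in minimal medium. Each of 3 animals gave 1 independent culture, called culture 1, 2 or 3 here, and each culture was split over 4 treatments for 7 days: the solvent DMSO, or CHIR99021 at 1, 1.5 or 3 µM. The sample titles also tag cultures 1, 2 and 3 as med, min and max, without saying what these tags mean. This compound blocks GSK3, a kinase that marks β-catenin for breakdown, and so activates WNT/CTNNB1 signalling. All animals were of this inbred strain, no transgene or deletion is named, and the libraries hold the RNA of whole cultures.

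Keratins are the intermediate filament proteins of epithelia, and a filament needs a partner of type I and a partner of type II. The normal mammary gland makes Krt8 and Krt18 in its luminal cells and Krt5 and Krt14 in its basal cells. In epidermis, cells that leave the basal layer switch to the type II keratin Krt1 and the type I keratin Krt10. In the lining of the mouth and oesophagus the suprabasal pair is Krt4 (type II) and Krt13 (type I). Krt2 belongs to the upper epidermis, Krt77 and Krt78 are further type II keratins of differentiating stratified epithelia, Krt80 is a type II keratin found in many epithelia, and Krt84 is a hard keratin of the nail and of the papillae of the tongue.

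The 12 libraries held 10.1 to 24.5 M counts (M, mega-counts), and levels are given as counts per M counts after scaling between libraries (CPM). Counts of 10 of 10 mammary epithelial marker genes, among them Epcam, Krt8, Krt18, Krt5 and Krt14, were found in every group. Markers of other cells were present too, and their levels moved with dose and culture. The summed level of 6 fibroblast genes was 1547, 7160 and 20168 CPM in DMSO cultures 1, 2 and 3, and 164, 922 and 4481 CPM at 3 µM, so culture 3 held the most at both ends of the dose range. Among these genes Dcn went the other way, with a mean of 294 CPM in DMSO and 400 CPM at 3 µM, while the rest had lower means at 3 µM. From DMSO to 3 µM, 4 adipocyte genes went from sums of 3356 to 8931 CPM to 36.1 to 236 CPM, 4 endothelial genes from 217 to 466 CPM to 22.8 to 76.9 CPM, and 5 leukocyte genes from 25.5 to 173 CPM to 10.03 to 51.4 CPM. All genes of these lists had a count in both groups, and their part in the keratin results was not tested. In bulk RNA, fewer cells of a type and less RNA per cell cannot be told apart, for the keratins as for these markers.

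Krt10 and Krt13 lie in the type I keratin cluster on chromosome 11, and the other 7 lie in the type II cluster on chromosome 15, all on the minus strand. In the coordinates of the deposited table, which match GRCm38, Krt10 spans chr11:99385254-99389364 with 8 exons in its principal transcript. RefSeq's promoter table (GRCm38.p6) held 6 of the 9 genes and none for Krt1, Krt4 or Krt80. The 250 bases before the start site are shown for 1 gene of each type, the epidermal Krt10, the mucosal Krt13 (the first of its 2 start sites) and the nail keratin Krt84, because the results below contrast these types. Capitals mark matches on either strand to 5 motifs that were searched. These were CTTTGAT for TCF/LEF factors, TGANTCA for AP-1, the TATA box as TATAAA, the CACCC box as CCACCC, and GCCNNNGGC for AP-2. No match overlapped another. Each sequence is on the gene's own strand, the minus strand of the chromosome.
Krt10, chr11:99389365-99389614: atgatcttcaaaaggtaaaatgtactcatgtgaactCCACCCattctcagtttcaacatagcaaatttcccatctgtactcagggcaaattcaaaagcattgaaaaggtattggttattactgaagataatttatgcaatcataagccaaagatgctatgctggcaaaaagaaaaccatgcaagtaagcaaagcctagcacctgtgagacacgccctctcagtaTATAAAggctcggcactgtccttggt
Krt13, chr11:100121567-100121816: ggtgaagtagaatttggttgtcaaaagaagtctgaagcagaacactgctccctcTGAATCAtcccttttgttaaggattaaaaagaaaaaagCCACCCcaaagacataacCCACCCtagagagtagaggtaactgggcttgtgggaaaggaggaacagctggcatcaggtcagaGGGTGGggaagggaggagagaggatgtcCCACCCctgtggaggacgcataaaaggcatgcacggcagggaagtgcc
Krt84, chr15:101532821-101533070: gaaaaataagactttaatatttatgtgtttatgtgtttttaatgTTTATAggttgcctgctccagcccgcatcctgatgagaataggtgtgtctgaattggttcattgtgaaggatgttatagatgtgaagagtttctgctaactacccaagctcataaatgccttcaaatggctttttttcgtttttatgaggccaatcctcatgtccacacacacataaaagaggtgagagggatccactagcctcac

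Krt10 carried TATAAA 26 to 21 bases before its start, and 12.4% of 32851 promoter windows of the same length hold that motif. Krt13 carried 1 AP-1 match (6.75% of windows) and 4 CCACCC matches (28.1% of windows hold at least 1). In the Krt84 window the only match was TATAAA on the opposite strand, 206 to 201 bases before the start. No TCF/LEF match (3.21% of windows) stood in these 3 windows. Of the 6 promoters available, only that of Krt2 held one, and Krt2 had 1 count in all 12 libraries. These matches describe letters in a short window and not sites in use.

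At the level of RNA, the epidermal pair reached the highest levels, Krt78 and Krt80 were higher at each dose than at the one below in every culture, and the mucosal Krt4 and the nail keratin Krt84 were called against DMSO at 3 µM and at no lower dose. Relative to DMSO, edgeR's quasi-likelihood test with Benjamini-Hochberg adjustment over 15316 genes called 0 of 7 tested members higher at 1 µM, 5 at 1.5 µM and 7 at 3 µM. The shares of all tested genes called higher in those comparisons were 0.189%, 15.4% and 29.9%. With the culture as a block, 3 members were called at 1 µM (Krt1, Krt10 and Krt80), where 2.55% of all genes were called higher. These 3 and Krt78 were higher than in DMSO in 3 of 3 cultures, a description only, since the share of all genes that were so was not counted. Nor was it counted for the dose order of Krt78 and Krt80, or for statements below on groups that do not overlap. Between neighbouring doses, 2 of 7 members were called higher at 1.5 than at 1 µM (4.43% of all genes). With the block 5 of 7 were, as were 1737 of all 15316 genes. At 3 against 1.5 µM 4 of 7 were called higher without the block (17.0%). From 1 to 3 µM all 7 were called higher (27.8%). No member was called lower in any of these comparisons. Krt2 and Krt13 had too few counts for the filter and are described by their counts. The filter spans all groups, and Krt84 passed it through its counts at 3 µM and Krt77 through those at 1.5 and 3 µM. The number of members tested thus depends on doses where these genes were high. With DMSO and 1 µM alone in the filter and fit, 4 members were tested and 0 were called.

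**Figure D1:**
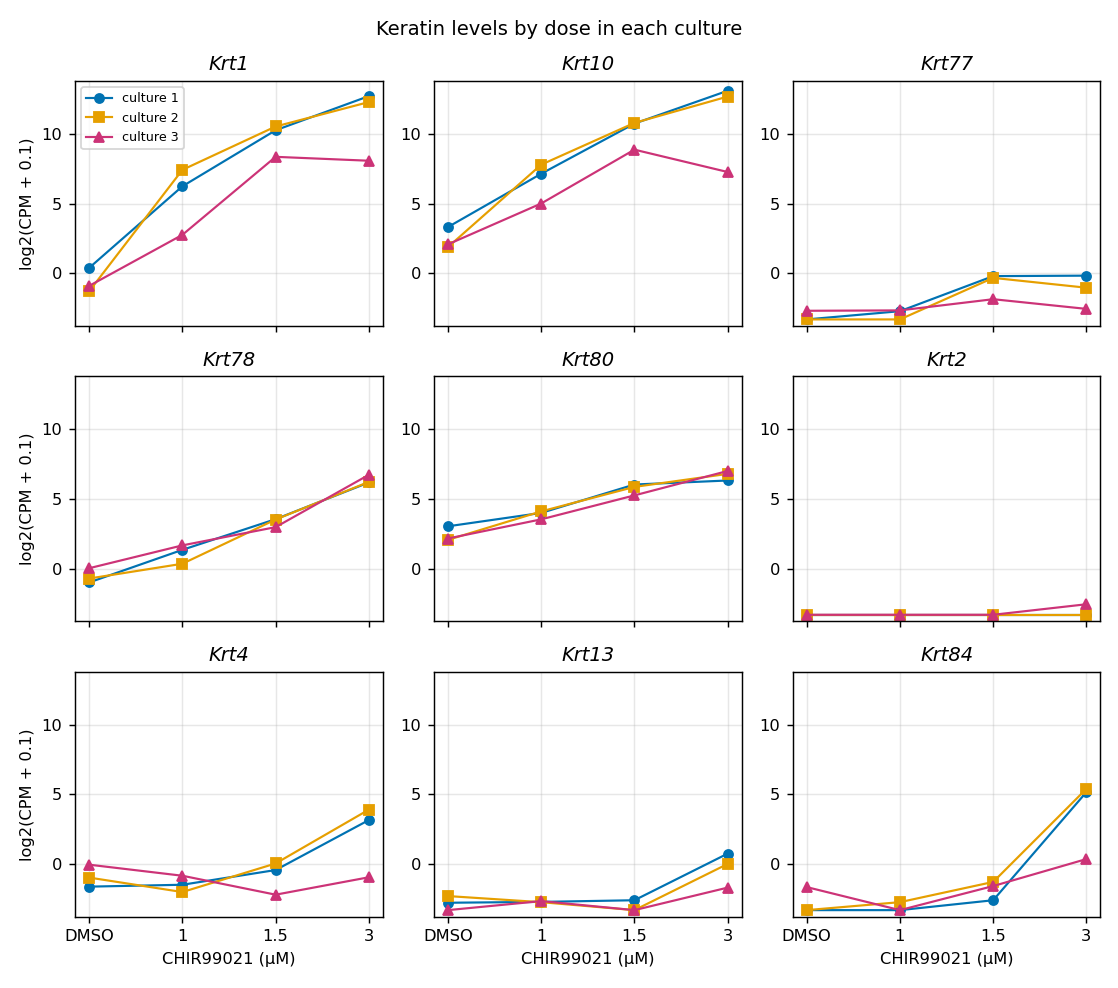
Level of each of the 9 keratins, as log2(CPM + 0.1), against treatment (DMSO or CHIR99021 in µM, spaced evenly), with 1 line per culture and all panels on 1 scale. Krt1 and Krt10 climb over the whole range in cultures 1 and 2 and turn down after 1.5 µM in culture 3, Krt78 and Krt80 climb alike in all 3 cultures, and Krt4, Krt13 and Krt84 leave the floor at 3 µM, mainly in cultures 1 and 2.

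Krt1 was close to absent without CHIR99021. Its level in DMSO was 1.199, 0.304 and 0.430 CPM in cultures 1, 2 and 3. At 1 µM it stood at 75.4, 171 and 6.64 CPM, above all DMSO libraries but spread over more than an order of magnitude. At 1.5 µM it reached 1231, 1483 and 328 CPM and at 3 µM 6739, 5013 and 270 CPM. Culture 3 was the lowest at each of the 3 doses, and at 3 µM its value lay below all 3 libraries at 1.5 µM. The log2 fold change against DMSO was 6.89 ± 1.57 (SE) at 1 µM, which was not called (edgeR adjusted p = 0.118), 10.48 ± 1.76 at 1.5 µM (adjusted p = 0.00245) and 12.46 ± 1.87 at 3 µM (adjusted p = 0.000331). Leaving out culture 1 or culture 2 took the call at 1.5 µM away (adjusted p = 0.0504 and 0.0887), with changes of 11.19 and 9.86. With the culture as a block, the change at 1 µM was called (6.47, edgeR adjusted p = 0.00893).

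Krt10, the type I partner, began from a higher base. DMSO libraries held 9.81, 3.55 and 4.09 CPM, and 1 µM raised the values to 141, 221 and 32.0 CPM without a call (log2 fold change 4.47 ± 1.28, edgeR adjusted p = 0.199; with the culture as a block 4.12, adjusted p = 0.0384). At 1.5 µM the level was 1714, 1773 and 468 CPM, a called rise of 7.80 ± 1.48 on the log2 scale (adjusted p = 0.00438). At 3 µM it was 8793, 6584 and 154 CPM, a rise of 9.77 ± 1.60 (adjusted p = 0.000563). The call at 1.5 µM was lost without culture 1 (8.19, edgeR adjusted p = 0.0606) or culture 2 (7.29, adjusted p = 0.129). All treated libraries exceeded all DMSO libraries at each dose. At 3 µM Krt10 was the gene with the 7th and 10th highest count in cultures 1 and 2, and the 1441st in culture 3.

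The step from 1.5 to 3 µM split the cultures for this pair. Krt1 rose by a factor of 5.48 in culture 1 and 3.38 in culture 2 and stood at 0.823 of its former level in culture 3. Krt10 rose by factors of 5.13 and 3.71 in cultures 1 and 2 and stood at 0.329 of its former level in culture 3. Over the 3 cultures neither step was called (Krt1 log2 fold change 1.98 ± 1.17, edgeR adjusted p = 0.224; Krt10 1.97 ± 1.13, adjusted p = 0.212). Nor was either called with the culture as a block (edgeR adjusted p = 0.0942 for Krt1 and 0.178 for Krt10). Without culture 1 the adjusted p were 0.562 and 0.530, and without culture 2 they were 0.486 and 0.517. With culture 3, the only one where the levels fell, left out of all groups both were called (Krt1 2.096, adjusted p = 0.0146, and Krt10 2.12, adjusted p = 0.0121). For Krt10 leaving out the 1 library of culture 3 at 3 µM was enough (2.55, adjusted p = 0.0333). The step from 1 to 1.5 µM was called for neither gene (Krt1 3.59 ± 1.25, edgeR adjusted p = 0.133; Krt10 3.33 ± 1.19, adjusted p = 0.144) and for both with the culture as a block (adjusted p = 0.00322 and 0.0182). It was also called for both without culture 3 (adjusted p = 0.0108 for each gene), and for Krt10 without the library of culture 3 at 3 µM (adjusted p = 0.0309).

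The balance within the epidermal pair changed as well. Krt1 had 0.122, 0.0857 and 0.105 counts per count of Krt10 in the DMSO cultures 1, 2 and 3. The ratio was 0.535, 0.773 and 0.208 at 1 µM, and 0.718, 0.836 and 0.700 at 1.5 µM. At 3 µM it was 0.766 in culture 1 and 0.761 in culture 2, close to the 1.5 µM values, and 1.75 in culture 3, where Krt1 exceeded Krt10. The exact binomial 95% interval of that last ratio was 1.66 to 1.85, which covers counting error only. The ratio exceeded its DMSO range in all 9 treated libraries. The DMSO ratios rest on 27, 3 and 8 counts of Krt1, with intervals of 0.0787 to 0.183, 0.0169 to 0.272 and 0.0439 to 0.218. That of culture 3 at 1 µM, 0.208 with an interval of 0.169 to 0.254, overlapped these. In the other treated libraries the ratio lay above all 3 intervals, so the type II partner gained on the type I partner there. Per kilobase of the principal transcript the ratio was 0.0731 to 0.104 in DMSO, 0.597 to 0.713 at 1.5 µM and 0.649 to 1.50 at 3 µM.

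The mucosal keratins stayed far below the epidermal pair. Krt4 held 0.222, 0.406 and 0.861 CPM in DMSO, 0.254, 0.146 and 0.454 CPM at 1 µM, and 0.636, 0.921 and 0.116 CPM at 1.5 µM, so these 3 groups overlapped. At 3 µM it reached 8.78 and 14.8 CPM in cultures 1 and 2 and remained at 0.414 CPM in culture 3, inside the DMSO range. The rise at 3 µM against DMSO was called (log2 fold change 3.99 ± 1.11, edgeR adjusted p = 0.0114) although it was seen in 2 of 3 cultures only. Against 1.5 µM it was 3.79 ± 1.09 (adjusted p = 0.0258), a call that was lost without any 1 of 5 libraries (any culture at 1.5 µM, or culture 1 or 2 at 3 µM), with adjusted p between 0.0541 and 0.0895. With culture 1 or culture 2 left out of all groups the rise against DMSO was 3.52 (edgeR adjusted p = 0.12) or 3.08 (adjusted p = 0.172). At 1 and 1.5 µM the change against DMSO was −0.81 ± 1.18 and 0.20 ± 1.11 (adjusted p = 0.855 and 0.914).

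Krt13, the type I partner of Krt4, was barely sequenced. It had 1, 1 and 0 counts in DMSO, 1 count in each culture at 1 µM, and 1, 0 and 0 counts at 1.5 µM. At 3 µM there were 20, 14 and 3 counts, or 1.57, 0.898 and 0.207 CPM, and each culture was above all libraries at lower doses. Summed over cultures and scaled for library size, the level at 3 µM was 22.0 times that in DMSO (37 against 2 counts, exact 95% interval 5.68 to 188 for counting error only). In a fit of all 25210 genes with no filter on low counts, its log2 fold change was 4.20 at 3 µM against DMSO (edgeR adjusted p = 0.00482) and 5.15 against 1.5 µM (adjusted p = 0.00676), where 37 counts stood against 1 (ratio 50.97, exact 95% interval 8.598 to 2067).

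Krt84 had at most 8 counts in any library up to 1.5 µM and was well measured at 3 µM in 2 of 3 cultures. It had 0, 0 and 4 counts in DMSO, 0, 1 and 0 at 1 µM, and 1, 8 and 4 at 1.5 µM. At 3 µM it had 455, 654 and 17 counts, or 35.7, 41.9 and 1.17 CPM. Every 3 µM library was above every other library, but culture 3 was 33.1 times below the mean of cultures 1 and 2. The log2 fold change was 6.90 ± 1.29 from 1.5 to 3 µM (edgeR adjusted p = 0.00387) and 8.26 ± 1.45 from DMSO to 3 µM (adjusted p = 0.00087). The latter rests on 4 counts of DMSO culture 3, and without that library it was 11.83 (adjusted p = 0.00423). Summed over cultures, the level at 3 µM was 119 times that at 1.5 µM (1126 against 13 counts, exact 95% interval 69.5 to 225 for counting error only). Without culture 2 the rise over DMSO was 7.41 (edgeR adjusted p = 0.0662), and without culture 1 or culture 2 the rise over 1.5 µM was 6.27 or 6.87 (adjusted p = 0.0728 and 0.159). Before that dose nothing was called: at 1.5 µM the change against DMSO was 1.36 ± 1.72 (adjusted p = 0.586).

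**Figure D2:**
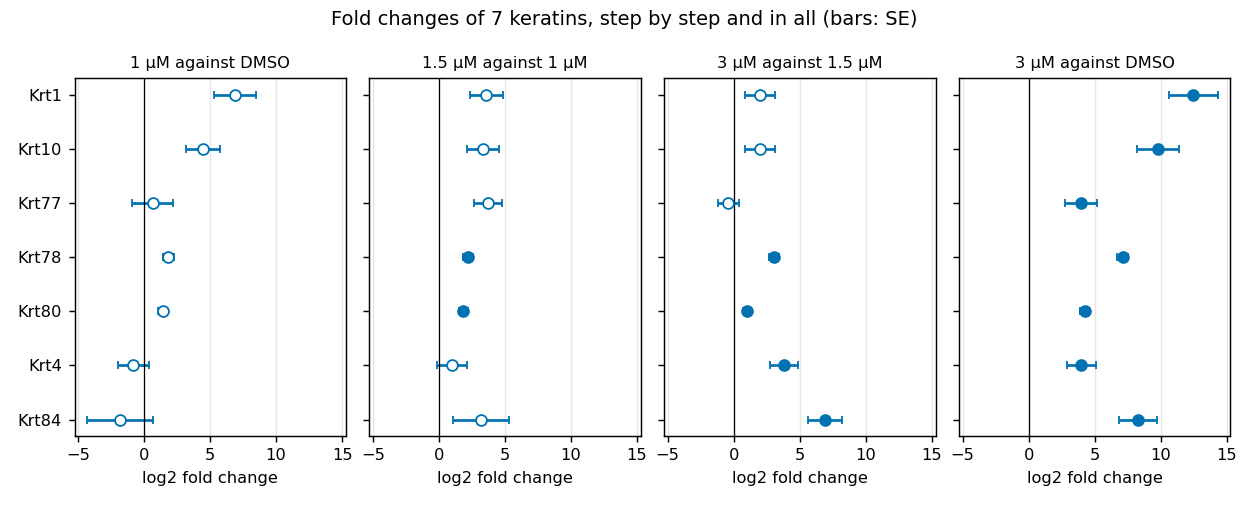
Log2 fold change (points) with its standard error (bars) of the 7 tested keratins for each dose step and for 3 µM against DMSO, where filled points are called at an adjusted p under 0.05. Krt1 and Krt10 gain most of their change below 1.5 µM, whereas Krt84 gains 6.90 of its change in the last step and Krt4 3.79.

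The ratio of the pairs within each library puts the contrast in 1 number. Counts of Krt1 plus Krt10, plus 1, were divided by counts of Krt4 plus Krt13, plus 1. The ratio was 35.6, 6.5 and 5 in DMSO and 609, 1612 and 68.1 at 1 µM. It was highest at 1.5 µM in all 3 cultures, with 3857, 3393 and 4582, and fell back to 1490, 735 and 614 at 3 µM. The values at 1.5 µM did not overlap those of any other group. From 1.5 to 3 µM the mucosal counts went from 11 to 132, 24 to 245 and 2 to 9 in cultures 1, 2 and 3. The epidermal counts went from 46284 to 198199, 84817 to 180832 and 13746 to 6140, so the mucosal pair gained counts in all 3 cultures and the epidermal pair in cultures 1 and 2. The mucosal pair had 2 to 24 counts at 1.5 µM, so single ratios are imprecise.

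**Figure D3:**
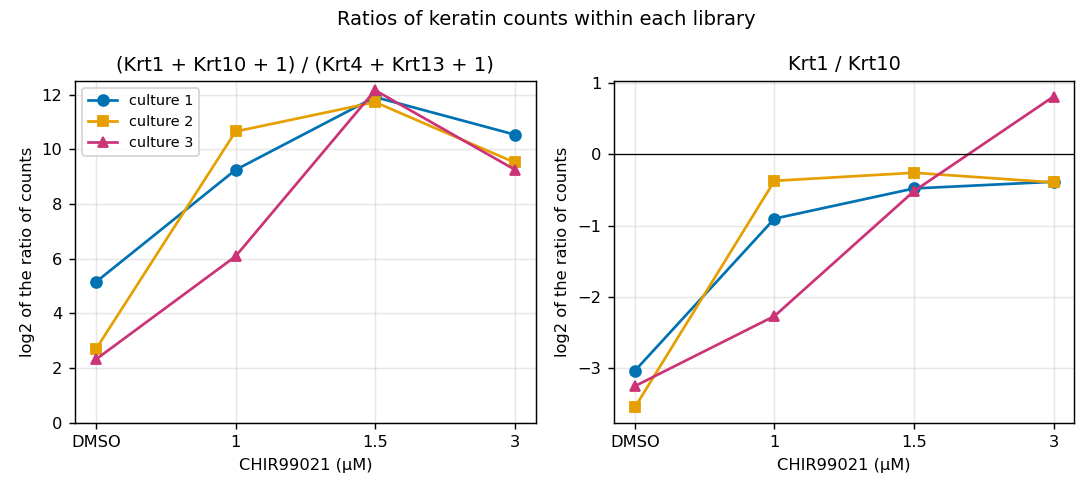
Ratio of epidermal to mucosal keratin counts (left) and of Krt1 to Krt10 counts (right) in each library, on a log2 scale, with 1 line per culture. The left ratio peaks at 1.5 µM in each culture, and the right ratio levels off from 1.5 µM in cultures 1 and 2 and passes 0 (equal counts) at 3 µM in culture 3.

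Krt78 and Krt80 gave the steadiest response. Krt78 held 0.400, 0.507 and 0.915 CPM in DMSO, 2.44, 1.17 and 3.07 CPM at 1 µM, 11.6, 11.4 and 7.76 CPM at 1.5 µM, and 72.6, 74.7 and 106 CPM at 3 µM. No 2 neighbouring dose groups overlapped, and the share of all genes for which this held was not counted. Its log2 fold change against DMSO was 1.84 ± 0.42 at 1 µM (edgeR adjusted p = 0.119), 4.05 ± 0.41 at 1.5 µM (adjusted p = 0.000278) and 7.09 ± 0.45 at 3 µM (adjusted p = 2.38e-06). The steps from 1 to 1.5 µM (2.21 ± 0.35, adjusted p = 0.0106) and from 1.5 to 3 µM (3.04 ± 0.35, adjusted p = 0.000405) were both called. Without culture 1 or culture 2 the former was not (adjusted p = 0.171 and 0.307).

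Krt80 started higher and rose less. DMSO libraries held 8.08, 4.06 and 4.36 CPM, and those at 1 µM 15.8, 17.1 and 11.5 CPM. At 1.5 µM the values were 65.4, 58.1 and 38.0 CPM and at 3 µM 79.9, 111 and 128 CPM. The groups were again in dose order without overlap, with the same limit. The log2 fold change against DMSO was 1.41 ± 0.31 at 1 µM (edgeR adjusted p = 0.116, and 0.0401 with the culture as a block), 3.27 ± 0.33 at 1.5 µM (adjusted p = 0.000266) and 4.25 ± 0.34 at 3 µM (adjusted p = 8.09e-06). The last step, 0.98 ± 0.30, was called (adjusted p = 0.0315) but not without any 1 of 4 libraries (culture 2 or 3 at 1.5 or 3 µM), with adjusted p between 0.0708 and 0.0966, nor when libraries were scaled by totals alone (0.71, adjusted p = 0.107) or not filtered (0.93, adjusted p = 0.0658). The step from 1 to 1.5 µM was 1.86 ± 0.31 (edgeR adjusted p = 0.0113), and adjusted p was 0.124 without culture 1 and 0.307 without culture 2. Krt80 overlaps the antisense gene Gm35853 and Krt10 overlaps the antisense gene Gm11940. Whether strand was used in counting is not given in the sources used here, so reads of these partners may be included.

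Krt77 and Krt2 remained at the edge of detection. Krt77 had 0, 0 and 1 counts in DMSO, 1, 0 and 1 at 1 µM, 12, 18 and 3 at 1.5 µM and 10, 6 and 1 at 3 µM. Its fitted change from 1.5 to 3 µM was below 0 and not called (log2 fold change −0.42 ± 0.79, edgeR adjusted p = 0.715). Its rise over DMSO was called at 1.5 µM (4.37 ± 1.17, adjusted p = 0.0203) and at 3 µM (3.95 ± 1.22, adjusted p = 0.0185). At 1.5 µM the call was lost without DMSO culture 1 or 2, or culture 1 or 2 at 1.5 µM (adjusted p between 0.0594 and 0.0675), and at 3 µM without DMSO culture 1 or culture 1 at 3 µM (adjusted p = 0.0686 and 0.0728). Leaving out DMSO culture 3, which holds the only DMSO count, gave 6.26 and 5.84 for these 2 changes, and without culture 2 the adjusted p were 0.23 and 0.131. On summed counts the level was 28.5 times that in DMSO at 1.5 µM (33 against 1 count, exact 95% interval 4.77 to 1159) and 20.2 times at 3 µM (17 against 1, interval 3.17 to 845). From 1 to 1.5 µM Krt77 had a log2 fold change of 3.72 ± 1.05 without a call (edgeR adjusted p = 0.068), and with the culture as a block it was called (adjusted p = 0.0158), as it was without culture 3 at 3 µM (adjusted p = 0.0355). Krt2 had a single count, in culture 3 at 3 µM.

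Per kilobase of exon, the order of levels also changed with dose. In DMSO Krt10 led with 2.75 ± 1.64 CPM per kilobase (SD, n = 3), followed by Krt80 with 0.860 ± 0.351, and the other members lay at 0.233 or below with overlapping ranges between neighbours. At 3 µM the order was Krt10 (2449 ± 2123), Krt1 (908 ± 759), Krt78 (24.6 ± 5.49), Krt80 (16.7 ± 3.85), Krt84 (9.95 ± 8.31), Krt4 (3.75 ± 3.39), Krt13 (0.489 ± 0.374), Krt77 (0.141 ± 0.122) and Krt2 (0.00880 ± 0.0152), all in CPM per kilobase. Of these neighbours only Krt1 and Krt78, and Krt78 and Krt80, had separate ranges. On the length of the principal transcript Krt80 (34.7 ± 8.02) stood above Krt78, and Krt1 (1632 ± 1365) came closer to Krt10. The 9 genes together held 0.00205, 0.000869 and 0.00111% of all counts in DMSO and 1.37, 0.999 and 0.0606% at 3 µM. They made up 22.6, 24.6 and 7.86% of keratin counts at 1.5 µM and 20.7, 15.6 and 2.24% at 3 µM.

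Culture 3 at 3 µM stood apart, and the members divided over it. Its level was below the mean of cultures 1 and 2 by a factor of 49.997 for Krt10, 33.1 for Krt84, 28.5 for Krt4, 21.8 for Krt1, 8.47 for Krt77 and 5.96 for Krt13. Krt78 and Krt80 went the other way and were 1.44 and 1.34 times as high as that mean. Among the 7 tested members 5 lay more than 5-fold below the mean of the other cultures in this library, as did 1.78% of all tested genes and 1.07% of the 4575 genes called higher at 3 µM. Cultures 1 and 2 differed from each other by at most 0.87 on the log2(CPM + 0.1) scale for any member at this dose. The same library had the highest fibroblast marker sum at 3 µM (4481 CPM) and the lowest mammary epithelial sum (16567 CPM, against 30430 and 33422 CPM). Most of the epithelial sum was Krt5 (10087, 10533 and 5266 CPM in cultures 1, 2 and 3) and Krt14 (17801, 20334 and 8747 CPM), which themselves rose with dose. Krt8 (446, 542 and 486 CPM) and Krt18 (375, 436 and 458 CPM) were not lowest in culture 3. The part of these cells in the result was not tested.

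**Figure D4:**
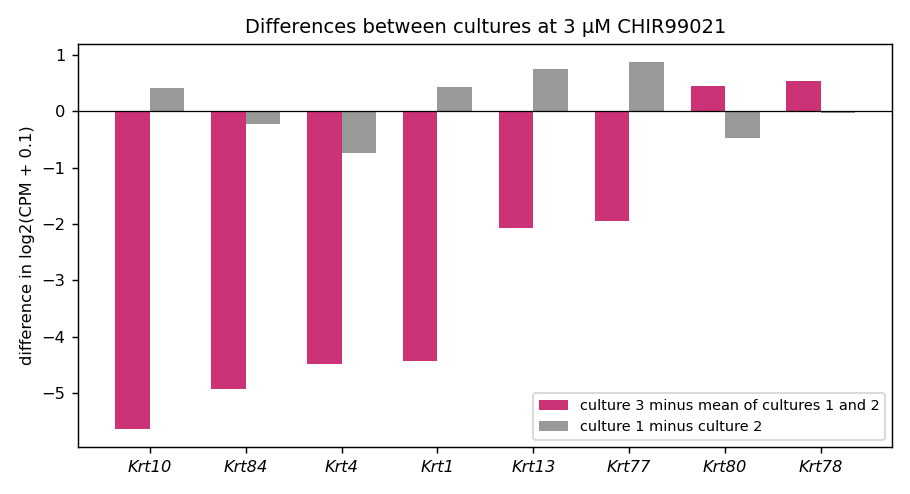
Difference in log2(CPM + 0.1) at 3 µM CHIR99021 between culture 3 and the mean of cultures 1 and 2 (pink), and between culture 1 and culture 2 (grey), for the 8 keratins with counts in more than 1 culture. Krt10, Krt84, Krt4 and Krt1 were lower in culture 3 by more than 4, whereas Krt78 and Krt80 were slightly higher.

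Over all doses, the level of 1 of 7 members differed between cultures (28.8% of all tested genes did). This was Krt1 (edgeR adjusted p = 0.00852), and without culture 3 its adjusted p was 0.62. Krt10 (adjusted p = 0.0599) and Krt84 (adjusted p = 0.0943) did not pass. Both passed without DMSO culture 3 (adjusted p = 0.043 and 0.0268). Krt10 also passed without culture 3 at 3 µM (adjusted p = 0.0172) and Krt84 without culture 3 at 1.5 µM (adjusted p = 0.0486). A test of different dose slopes between cultures, added after the counts of the members had been seen, called 0 of 7 members and 0% of genes with edgeR, with 1230 genes at an unadjusted p under 0.05. The fitted log2 slopes per µM for Krt84 were 5.80, 4.71 and 1.14 in cultures 1, 2 and 3 (unadjusted p = 0.000399, adjusted p = 0.233). For Krt4 they were 2.02, 2.30 and −0.43 (unadjusted p = 0.00452, adjusted p = 0.405), and for Krt78 2.40, 2.46 and 2.37 (adjusted p = 0.999).

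Other genes of the epidermal programme were higher at the doses where Krt1 and Krt10 were called, and a few were called at 1 µM already. Of 16 genes of cornified and suprabasal epidermis, 3 were called higher at 1 µM, 15 at 1.5 µM and 15 at 3 µM. The shares of all tested genes were 0.189%, 15.4% and 29.9%. The median log2 fold change of the 16 genes at 3 µM was 7.50, against −0.03 for all tested genes. Tgm3, a transglutaminase of the cornified envelope, changed most (10.84, edgeR adjusted p = 0.000332), and Lor, Flg and Krtdap rose by 10.67, 10.03 and 9.64 on the log2 scale. Krt9, the type I keratin of palm and sole skin, fell by 3.39 (edgeR adjusted p = 0.000483). Culture 3 was the lowest of the 3 cultures at 3 µM for 14 of these 16 genes, as it was for 42.8% of all tested genes and 64.2% of those called higher at 3 µM. It was more than 5-fold below the mean of the others for 3 of the 16, among which Tgm3 had 455, 534 and 17.999 CPM. From 1.5 to 3 µM in culture 3, where Krt1 and Krt10 were lower, Krtdap went from 145 to 758 CPM, Lor from 4.63 to 15.8 CPM and Tgm3 from 2.72 to 17.999 CPM. Cdsn and Sbsn, products of differentiating keratinocytes, were highest in culture 3 (Cdsn 364, 410 and 765 CPM), as Krt78 and Krt80 were.

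Of 13 genes linked to oral and oesophageal mucosa, 10 were tested and 9 were called higher at 3 µM (median 7.10), as were 29.9% of all tested genes. Most genes of this mucosal list serve epidermis too, and Tgm3, Krt6a and Krt16 stand in a second list as well. Crnn, a cornulin of the oesophageal lining, rose by 6.46 (edgeR adjusted p = 0.00065) at low levels of 3.21, 3.08 and 0.759 CPM. Emp1 did not pass (−0.02, adjusted p = 0.97). Sprr3 had 3.76, 2.37 and 0.345 CPM at 3 µM and was not tested, and Krt76 and Rhcg had at most 3 counts in any library.

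Other hard keratins were mostly too low to test. Of 15 hair and nail keratins, 7 were in the table and only Krt36 had enough counts for a test. At 3 µM Krt36 had 8.07 and 15.7 CPM in cultures 1 and 2 and 0 counts in culture 3, a change of 1.04 against DMSO (edgeR adjusted p = 0.523) and a rise of 4.83 over 1.5 µM (adjusted p = 0.0465). Krt32 had at most 13 counts in a library, Krt83 at most 14, and Krt81, Krt82, Krt35 and Krt39 at most 4. Among 6 regulators of the hair and nail matrix, Foxn1 rose by 5.72 (edgeR adjusted p = 2.3e-05) and Dlx3 by 1.22 (adjusted p = 0.0263) at 3 µM. Hoxc13 was likewise lowest in culture 3, with 6.03, 8.66 and 0.483 CPM at 3 µM, but did not pass against DMSO (2.84, adjusted p = 0.0701), and Msx1 stood at −1.28 (adjusted p = 0.0769). Melanocyte markers summed to at most 2.15 CPM in any library.

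Regulators of stratification and the basal keratins rose in most cases. Of 10 regulators 9 were called higher at 3 µM, led by Grhl3 (5.41, edgeR adjusted p = 1.87e-06), and Notch1 fell by 0.57 (adjusted p = 0.0189). Of 7 basal and stress keratins 6 rose, led by Krt6b (11.13, edgeR adjusted p = 2.19e-05), while Krt15 stood at −1.13 (adjusted p = 0.091). Among 4 tested simple epithelial keratins Krt7 rose by 1.92 (edgeR adjusted p = 0.000965), Krt19 fell by 2.11, Krt8 fell by 0.75 and Krt18 fell by 0.48. Krt20 had at most 1 count in a library. Over all keratins outside the 9 members, 11 of 19 tested were higher and 5 lower at 3 µM. For every count in this paragraph, the shares of all tested genes were 29.9% called higher and 27.7% called lower.

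**Figure D5:**
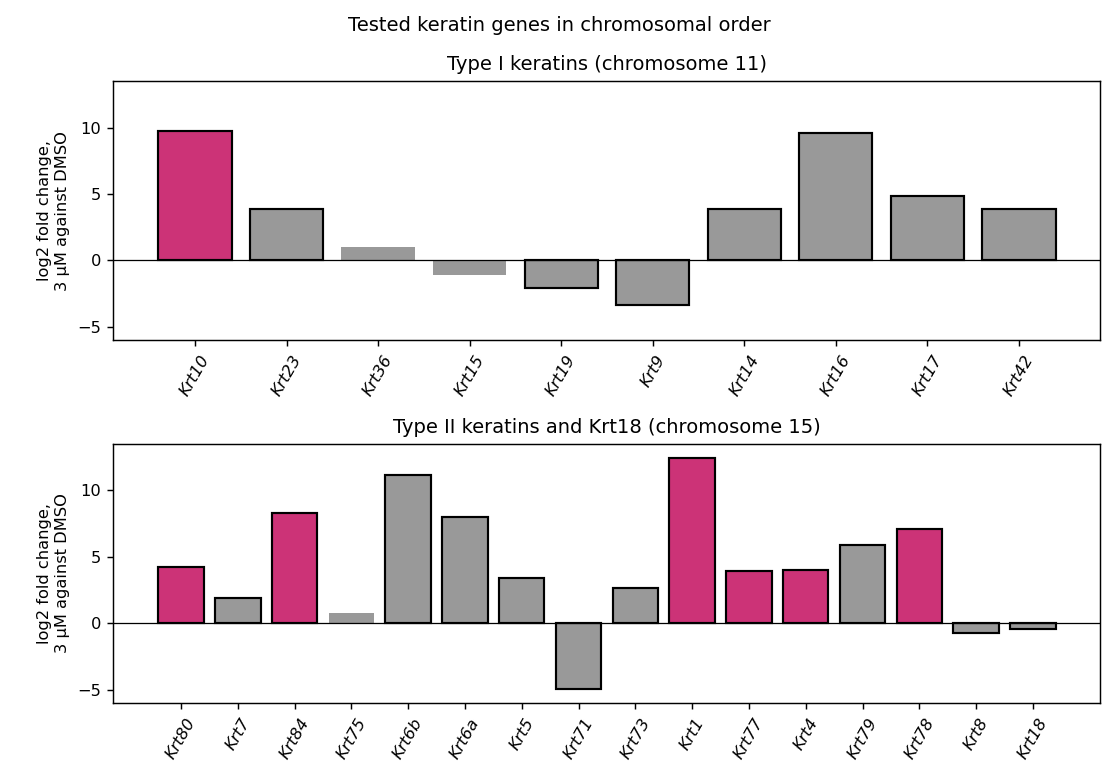
Log2 fold change at 3 µM against DMSO for all tested keratins in their order along chromosome 11 (top) and chromosome 15 (bottom). Pink bars are the members, grey bars other keratins, and an outline marks an adjusted p under 0.05. Krt1, Krt77, Krt4 and Krt78 stand in a row of higher genes near Krt71, which fell by 4.98.

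Across the 12 libraries, log2 levels of Krt1 and Krt10 had a Pearson r of 0.989, and those of Krt78 and Krt80 0.936. The r was 0.954 for Krt4 and Krt84, 0.956 for Krt13 and Krt84, and 0.899 for Krt4 and Krt13. Among the other pairs, leaving out Krt2, r ran from 0.488 (Krt13 and Krt77) to 0.924 (Krt1 and Krt80). Krt10 had 0.884 with Krt80 and 0.671 with Krt84, so high values were not confined to the pairs named first. Krt4, Krt13 and Krt84 were high only in the 3 µM libraries other than that of culture 3, and these weigh heavily in their r. All these correlations are descriptions over libraries that share treatment, culture and depth. Among 12434 genes outside the set with an average of at least 50 counts, the closest in pattern to Krt10 were Ccl20 (r = 0.982), H60c (0.981), Tma16, Gm94 and Traf3. Closest to Krt13 were Alox8 (0.966), Exoc4, Nf2, Pdlim1 and Commd8. Closest to Krt84 were Nf2 (0.984), Pdlim1, Rab1, Sec61b and Slirp. Likeness in pattern is not likeness in size: Nf2 went from a mean of 109 CPM in DMSO to 157 CPM at 3 µM, and Krt84 from 0.0717 to 26.3 CPM.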

How the data were processed

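Organoid RNA was measured in 12 libraries, 3 cultures under 4 treatments. The authors deposited whole-number read counts per Ensembl gene and a log2 table, and 0 of 302520 log2 values differed by more than 1e-09 from log2 of the count scaled to 10 M plus 1, so the deposited log2 values add nothing and were not used. The submitters' processing notes name TopHat2 2.1, Bowtie 1.1.0, HTSeq and DESeq2 and the builds GRCm38 and mm10. The annotation release and use of strand in counting are not given in the sources used here. Columns assigned to no sample numbered 0. Library totals were 10.1 to 24.5 M counts. Intervals cover counting error only, since they rest on counts of 1 library or summed over cultures and leave out variation between cultures. No molecular identifiers are described.

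Genes were filtered with filterByExpr (15316 kept) and scaled by TMM, and contrasts were tested, two-sided, in a quasi-likelihood model with a mean per treatment over all 12 libraries (edgeR 4.0.16, R 4.3.3, robust). P-values were adjusted over all tested genes at 0.05. CPM are per M TMM-scaled counts. The replicate number is the animal, so it pairs libraries: in 18 same-number pairs, deviations from group means correlated at 0.177 to 0.840, against a median of −0.21 in 36 other pairs. The model with culture as a block is an alternative, as are DESeq2 1.42.0, other scalings, filters and left-out libraries. Replicates differed beyond sampling noise (chi-square per degree of freedom at least 13.8). The test was checked on simulated data.

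Named are the 9 members, the 5 genes most alike to Krt10, Krt13 and Krt84 in log2(CPM + 0.5), and from each list the highest and lowest change at 3 µM, called genes against the majority and genes too low to test. Lor, Flg, Krtdap, Cdsn, Sbsn, Crnn, Foxn1, Dlx3 and Hoxc13 were added after their values were seen where the rule did not name them. Members and lists were chosen with earlier results of these data known. Lengths are unions of GENCODE M21 exons or the principal (APPRIS) transcript. Gene identifiers matched M21 for 24902 of 25210 genes, 99.9% on the same chromosome. In M21, 0% of the 50-base stretches of any member's principal transcript occur in another gene.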

Additional observations from a re-analysis of the deposited data

How the results depend on the processing

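Counts of members called higher were recomputed under each alternative, at the same threshold. At 1 µM against DMSO the count of 0 became 4 with DESeq2, 3 with the replicate block and 2 without culture 3, and 4 members had an unadjusted p under 0.05. At 1.5 µM against DMSO 5 became 2 without culture 1 and 2 without culture 2. At 3 µM against DMSO 7 became 4 without culture 2. From 1 to 1.5 µM 2 became 4 with DESeq2, 5 with the replicate block, 0 without culture 1, 0 without culture 2 and 5 without culture 3. From 1.5 to 3 µM 4 became 2 without culture 1 and 1 without culture 2, and from 1 to 3 µM 7 became 3 and 2. For the test of cultures 1 became 2 with DESeq2 and 0 without culture 3. Leaving out single libraries gave 2 to 4 calls from 1 to 1.5 µM, 2 to 5 from 1.5 to 3 µM and 1 to 3 between cultures. The replicate block changed no other count of members called by over 1.5 times. Leaving out a whole culture leaves 2 per group, and calls over all genes were recounted in the same fits. Without culture 1 and culture 2, they fell from 2364 to 866 and 334 at 1.5 µM against DMSO. They fell from 679 to 0 and 0 from 1 to 1.5 µM, and from 2601 to 608 and 196 from 1.5 to 3 µM. Without culture 3, which also leaves 2 per group, they did not fall and were 2457, 810 and 2930. Causes were not tested.

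Of 905 alternatives of 42 results on single members, 825 kept direction and side of the threshold, 50 lost and 22 gained the call, and 8 reversed, all for changes that were not called. Krt4 at 1.5 µM against DMSO (0.20) was −0.15 with the replicate block, −0.27 without culture 1, −0.52 without culture 2, and from −0.42 to 0.90 when single libraries were left out (−0.20 without DMSO culture 1). Krt77 from 1.5 to 3 µM was 0.0887 without culture 3 at 3 µM, in a range of −1.22 to 0.0887. Krt84 at 1 µM against DMSO was 2.19 without culture 3, and −3.56 to 1.77 without single libraries, with 1.77 for DMSO culture 3.

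Over all genes, scaling by library totals alone moved the median log2 fold change at 3 µM from −0.03 to −0.23 against DMSO, from −0.0028 to −0.28 against 1.5 µM and from −0.02 to −0.30 against 1 µM. The split of higher and lower calls moved from 4575 and 4239 to 3395 and 5404 against DMSO, from 2601 and 1943 to 1050 and 3860 against 1.5 µM and from 4260 and 3708 to 2649 and 5534 against 1 µM. At 1 µM against DMSO 29 genes were called higher, 335 with DESeq2, 390 with the replicate block, 0 in a fit of the 2 groups alone and 2 to 38 without single libraries. From 1 to 1.5 µM 679 were, against 1071 with DESeq2, 1737 with the block, 400 without a filter and 117 to 1112 without single libraries. From 1.5 to 3 µM 2601 became 1656 in a fit of the 2 groups alone.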

Other observations

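Other keratins of the same clusters differed among themselves in how they followed dose. Krt73, an inner root sheath keratin, was highest at 1.5 µM, with 9.29, 4.57 and 2.72 CPM in cultures 1, 2 and 3, against at most 0.108 CPM in DMSO. At 3 µM it had 1.25, 0.449 and 0.276 CPM, a fall by 3.07 on the log2 scale from 1.5 µM (edgeR adjusted p = 0.00374). Krt71, another inner root sheath keratin, had 2.62, 2.23 and 2.53 CPM in DMSO and fell by 4.98 at 3 µM (edgeR adjusted p = 0.000687), where 0.157, 0 and 0.069 CPM remained. Krt79, a keratin of the hair follicle's upper channel, rose by 5.86 (edgeR adjusted p = 2.19e-05), and at 1.5 µM culture 3 was the highest (122, 108 and 274 CPM). Krt27 had 1.02, 2.31 and 0.138 CPM at 3 µM and was not tested.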
